A study of Mus musculus with 31 samples.

Results

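The 9 genes described here belong to the study's miR-17 pharmacodynamic signature and were measured one by one in mouse kidney: Plekha3, Mink1, Cdc37l1, Zfp367, Rhoc, D030056L22Rik, Polq, Mtf1 and St6galnac6. They were picked by gene symbol. They make up 9 of the 18 genes of the signature, 9 of the 23509 genes listed in the files and 9 of the 15185 genes that passed the filter on low counts. The signature is a list that the study assembled in cell lines, partly by matches to miR-17 in the 3′UTR, and its authors read it relative to 6 housekeeping genes. Its candidates were also chosen for rising with anti-miR-17 oligonucleotides and falling with a miR-17 mimic. For kidneys of another mouse model, Pkd2-KO, the study used a smaller set. That set holds Plekha3, Mink1, Cdc37l1, Zfp367, Polq and Mtf1 but not Rhoc, D030056L22Rik or St6galnac6.

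Kidney RNA came from 31 mice in 3 groups. Pcy/CD1 mice are a strain on a CD1 background that develops slowly growing kidney cysts. Of these male mice, 12 received PBS and 14 received RGLS4326 at 25 mg kg-1 once monthly, by subcutaneous injection for 25 weeks from 5 weeks of age. The 5 wild-type mice were untreated male CD1 mice. All kidneys were taken at 30 weeks of age. The labels give PBS dosing as weekly in one place and monthly in another. Genotype and injection cannot be told apart between PBS and wild type, because the wild-type mice were not injected.

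MicroRNAs of the miR-17 family pair through their seed, bases 2 to 8 of the mature strand, with matching stretches in the 3′UTR of an mRNA, which lowers the stability and the translation of that mRNA. The family is made from related gene clusters, is known to be raised in cystic kidneys, and promotes cell proliferation. RGLS4326 is a short, chemically modified oligonucleotide complementary to the seed end of miR-17, so an mRNA held down by the family is the kind of readout for which the signature was built.

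The mature family members share 1 seed, in capitals here in the RefSeq sequences of build GRCm38.p6, because all matches described here are read against it.
mmu-miR-17-5p: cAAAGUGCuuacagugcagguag
mmu-miR-20a-5p: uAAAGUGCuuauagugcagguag
mmu-miR-93-5p: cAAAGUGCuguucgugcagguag
mmu-miR-106b-5p: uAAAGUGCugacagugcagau

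The 3′UTR of every one of the 9 genes held at least 1 match of 7 or 8 bases. The matches searched were GCACTTTA (8mer) and GCACTTT (7mer-m8, which every 8mer contains), on the sense strand of the longest annotated 3′UTR in GENCODE vM21 on GRCm38. Such a match was present in 2006 of 14437 tested genes with a 3′UTR, or 13.89%, in 9 of the other 9 signature genes and in 0 of the 6 housekeeping genes. As the study chose the signature partly by such matches, these counts describe the choice. An 8mer was present in 7 of the 9 genes, against 4.281% of all genes, and Plekha3 and Zfp367 held 2 matches of either type, against 2.113% of all genes. The sites of the genes that turned out higher with RGLS4326, and of 3 that did not pass the test, are printed for comparison as 30 bases of the mRNA sense strand, with the match in capitals.
Plekha3 first site: aggatttctctGCACTTTAtagaatattgt
Plekha3 second site: tagaatgatcaGCACTTTAacaaaaattgg
Mink1: attttctgaaaGCACTTTAatgattccccc
Cdc37l1: ttatgggtgctGCACTTTAtttttgtttgg
Zfp367 first site: gagagagaattGCACTTTttttttatatgg
Zfp367 second site: tctcacaggaaGCACTTTgtgaataagaca
Rhoc: attacacaccaGCACTTTAtatatttttgg
Polq: aaatgcacttaGCACTTTgggttctcaact
St6galnac6: cccttgcttaaGCACTTTAttaagggcagg

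All these matches lie in the last exon, in the 3′UTR. In Plekha3, on the plus strand (chr2:76675281-76696828), they are at chr2:76695690-76695697 and chr2:76696679-76696686, 188 and 1177 bases after the stop codon in a 3′UTR of 1326 bases. In Mink1, on the plus strand (chr11:70562881-70614483), the match is at chr11:70614211-70614218, 499 bases after the stop. In Cdc37l1, on the plus strand (chr19:28990352-29026681), it is at chr19:29016189-29016196, 85 bases after the stop in a long 3′UTR of 4133 bases. The pair of 7mers in Zfp367, on the minus strand (chr13:64133018-64153202), are at chr13:64135149-64135155 and chr13:64135001-64135007, 159 and 307 bases after the stop. The Plekha3 and Zfp367 pairs therefore differ in spacing: the Zfp367 matches are close neighbours and the Plekha3 matches sit near opposite ends of the 3′UTR. In Rhoc, on the plus strand (chr3:104788375-104794459), the match is at chr3:104794332-104794339, in the shortest of the 3′UTRs, 416 bases. In Polq, on the plus strand (chr16:37011786-37095417), it is at chr16:37094877-37094883, in exon 30 of 30. In St6galnac6, on the plus strand (chr2:32599709-32620806), it is at chr2:32620592-32620599, 1063 bases after the stop. The 8mers not printed are that of D030056L22Rik, on the plus strand (chr19:18713193-18718428), at chr19:18718123-18718130, and that of Mtf1, on the plus strand (chr4:124802104-124849800), at chr4:124847528-124847535, which is 3185 bases after the stop in the longest of the 3′UTRs, 5457 bases.

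**Figure D1:**
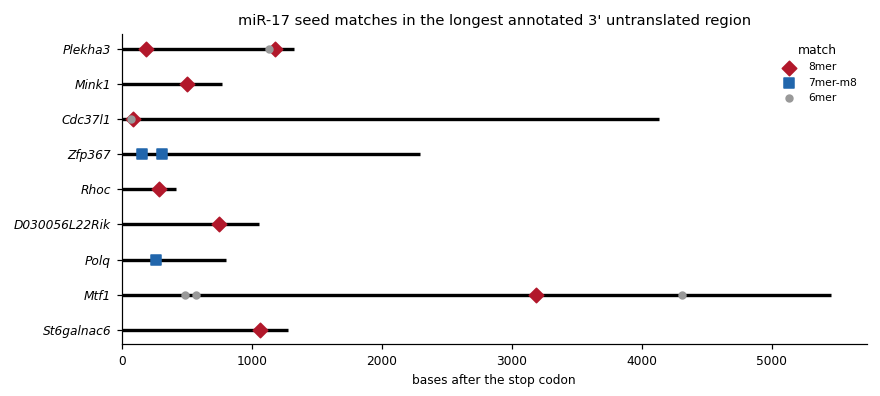
Position of the 8mer and 7mer-m8 matches to the miR-17 seed in the 3′UTR of each of the 9 genes; the horizontal axis gives bases after the stop codon and each line is the longest annotated 3′UTR. The matches range from 85 bases after the stop in Cdc37l1 to 3185 in Mtf1.

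Expression is given in CPM, the rate of a gene's deposited counts in its library after edgeR's TMM correction of the library size. Gene counts totalled 14892524 to 27459962 per mouse. Most of the 9 genes were well sampled: Mink1 had 2572 to 4935 counts per mouse, Plekha3 516 to 957 and Zfp367 248 to 517. Polq had 8 to 36 counts per mouse and is measured least precisely. In these whole-kidney samples fewer cells of a type and less RNA per cell cannot be told apart. The polyA libraries were stranded, but the strand setting of the counting is not given in the sources used here. Exons of Mink1, Cdc37l1, Zfp367 and Mtf1 overlap an antisense gene (Gm12316, Ak3, Gm47513 and 1110065P20Rik, over 220, 430, 603 and 721 bases), so reads of these stretches may not be told apart.

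RGLS4326-treated mouse 9 stood apart from its group. Its Lcn2, which encodes the tubular injury marker Ngal, was 2.76 CPM, within the wild-type range of 0.944 to 11.2 CPM, whereas treated mice averaged 333 ± 193 CPM (SD, n = 14) and PBS mice 583 ± 336 CPM (SD, n = 12). Among treated mice it had the lowest Rhoc, D030056L22Rik, Polq and St6galnac6 and the highest Zfp367 and Mtf1. The tests below include this mouse, and values without it are given for each gene between RGLS4326 and PBS. Between RGLS4326 and wild type, leaving it out changed no call among the 9 genes. The closest pair of libraries, wild-type mice 3 and 4, still differed beyond sampling noise (over 10690 genes their chi-square per gene was 2.84, against at least 17.1 in every other wild-type pair), and both were counted. The numbers in the library names restart within each group and form 3 index series, which hold 4, 4 and 4 PBS mice, 4, 5 and 5 RGLS4326 mice and 2, 2 and 1 wild-type mice. The labels do not call the series a batch.

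With RGLS4326, Plekha3, Mink1, Cdc37l1 and Zfp367 rose 1.124- to 1.27-fold over PBS, and the other 5 genes did not pass the test. The 4 calls out of 9 were all in the higher direction, in which 9.15% of all genes tested passed, while 6.66% passed in the lower direction and 15.8% in either (2402 of 15185 genes, by the quasi-likelihood test of edgeR at a Benjamini-Hochberg adjusted p under 0.05). These 9 genes were chosen with earlier results of these data known, and in the other 9 signature genes 0 passed the same test, with 2 at an unadjusted p under 0.05. That count changed with the setting. P2rx4 passed with DESeq2, with RLE size factors, with the Lcn2 covariate and scaled to the housekeeping genes, where 0 of the 9 genes did. Leaving out PBS mouse 1 or RGLS4326 mouse 7, 9 or 12 also called P2rx4, leaving out RGLS4326 mouse 14 called Clock, and leaving out PBS mouse 4 called both. The median log2 difference was 0.13 over the 9 genes (8 above 0), -0.02 over the other 9 signature genes (4 above 0) and -0.00 over all genes tested. As the 9 were chosen with earlier results known, their median is a description and no test of a shift. The count of 2402 genes depends on single mice and ranged from 618 without PBS mouse 10 to 4002 without RGLS4326 mouse 2, while the count among the 9 genes stayed between 3 and 5.

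The same 9 genes were also set against wild type. In PBS-treated kidneys 8 of 9 passed, 3 higher and 5 lower, where 74.3% of all genes passed (37.7% higher, 36.6% lower). In RGLS4326-treated kidneys 6 of 9 passed against wild type, 4 higher and 2 lower, where 64.9% of all genes passed (32.5% higher, 32.4% lower). A call against wild type is therefore usual for any gene in these kidneys. The 3 comparisons share mice, so their values are given side by side and are not independent of each other. Scaling to the 6 housekeeping genes in place of TMM moved the median log2 difference of all genes to -0.33 between PBS and wild type, -0.25 between RGLS4326 and wild type and 0.08 between RGLS4326 and PBS, and the share of higher calls among all calls from 50.7% to 27.3%, from 50.1% to 26.2% and from 57.9% to 44.0%. This scaling used the summed counts of the 6 genes, so the most abundant of them weighed most. It is not the study's own qPCR normalization of the signature. After TMM the 6 genes had a median log2 difference of -0.01 between PBS and wild type, with 3 of the 6 above 0. Every direction given below against wild type is relative to TMM.

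**Figure D2:**
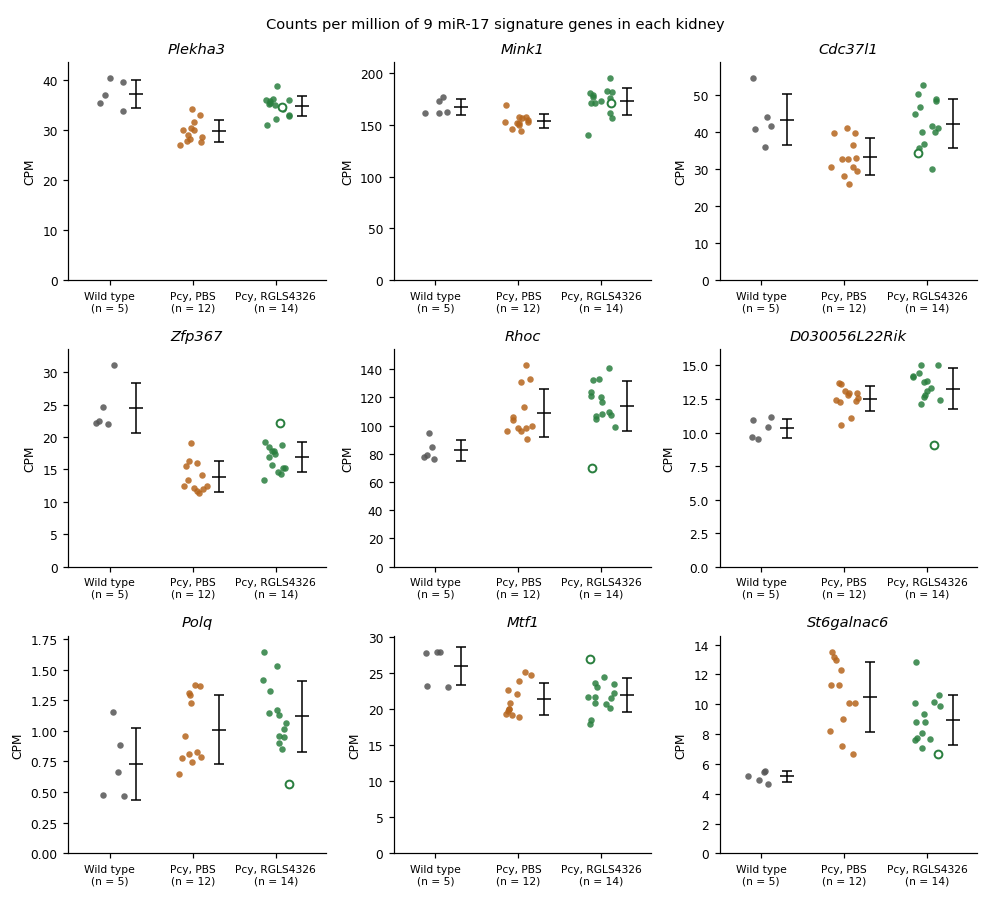
CPM of the 9 genes in each of 31 kidneys, by group (wild type n = 5, PBS n = 12, RGLS4326 n = 14); bars give the mean ± SD and the open circle marks RGLS4326-treated mouse 9. Plekha3, Mink1, Cdc37l1 and Zfp367 are lowest with PBS, and St6galnac6 is lowest in wild type.

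Plekha3 encodes a pleckstrin homology protein that binds phosphatidylinositol 4-phosphate (PI4P) at the trans-Golgi network and acts in traffic to the cell surface. In wild-type mice 1 to 5 it read 40.5, 39.7, 35.4, 33.8 and 37.1 CPM. With PBS its lowest, median and highest values were 27.1, 29.5 and 34.3 CPM, and with RGLS4326 they were 31.1, 35.2 and 38.9 CPM. All 14 treated mice lay above the PBS median and 9 above every PBS mouse, although the groups overlapped. Means were 37.3 ± 2.82 CPM for wild type (SD, n = 5), 29.9 ± 2.25 CPM for PBS (SD, n = 12) and 34.8 ± 2.0 CPM for RGLS4326 (SD, n = 14). RGLS4326 exceeded PBS by a log2 difference of 0.22 (standard error 0.040, edgeR adjusted p = 0.0031). PBS lay below wild type by a log2 difference of -0.32 (standard error 0.053, same edgeR test, adjusted p = 3.85e-06). Scaled to the 6 housekeeping genes that difference was -0.65 (edgeR adjusted p = 2.49e-06), but this scaling moved the median of all genes to -0.33 between PBS and wild type and to -0.25 between RGLS4326 and wild type, and relative to the median it was -0.33. RGLS4326 and wild type, next to each other in level, differed by -0.10 on the log2 scale (95% interval -0.21 to 0.0069, edgeR adjusted p = 0.0940), and this passed the threshold without wild-type mouse 4 (edgeR adjusted p = 0.0435), scaled to the housekeeping genes (-0.36, edgeR adjusted p = 0.0033) and in index series 1 alone (-0.23, edgeR adjusted p = 0.0438). Plekha3 kept its call against PBS whichever of the 31 mice was left out (log2 difference 0.21 to 0.24).

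Mink1 encodes misshapen-like kinase 1, a Ste20-family kinase upstream of stress-activated MAP kinases. Wild-type values were 162, 162, 177, 174 and 163 CPM. PBS mice ran from 144 to 170 CPM with a median of 153, and treated mice from 141 to 195 CPM with a median of 175. Of 14 treated mice, 13 lay above the PBS median and 11 above every PBS mouse, while treated mouse 14 lay below every PBS mouse. Means were 167 ± 7.38 CPM for wild type (SD, n = 5), 154 ± 6.60 CPM for PBS (SD, n = 12) and 173 ± 13.1 CPM for RGLS4326 (SD, n = 14). The log2 difference between RGLS4326 and PBS was 0.17 (standard error 0.037, edgeR adjusted p = 0.0099), and it passed whichever mouse was left out. PBS differed from wild type by -0.12 (standard error 0.050, edgeR adjusted p = 0.0273), a call that was lost without wild-type mouse 1, 3 or 4 (edgeR adjusted p = 0.0700, 0.0968 and 0.0717), and without mice 3 and 4 together (log2 difference -0.05, edgeR adjusted p = 0.435). Scaled to the housekeeping genes it passed at -0.46 (edgeR adjusted p = 0.00011), or -0.13 relative to the median of all genes. RGLS4326 and wild type did not differ beyond the spread between mice (log2 difference 0.05, 95% interval -0.06 to 0.15, edgeR adjusted p = 0.427), and scaling to the housekeeping genes turned this value to -0.21.

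Cdc37l1 encodes a Cdc37-like partner of the chaperone Hsp90. Its wild-type values, in mouse order, were 35.8, 44.0, 41.4, 40.6 and 54.4 CPM, a wide spread with mouse 5 on top. Its PBS values spanned 25.8 to 41.0 CPM (median 32.6) and its RGLS4326 values 30.0 to 52.7 CPM (median 41.2). Of 14 treated mice, 13 lay above the PBS median and 7 above every PBS mouse. Means were 43.2 ± 6.92 CPM for wild type (SD, n = 5), 33.3 ± 4.91 CPM for PBS (SD, n = 12) and 42.2 ± 6.69 CPM for RGLS4326 (SD, n = 14). RGLS4326 exceeded PBS by a log2 difference of 0.34 (standard error 0.085, edgeR adjusted p = 0.0147), the largest rise among the 9 genes, and this call too was kept whichever mouse was left out. PBS lay below wild type by -0.38 (standard error 0.113, edgeR adjusted p = 0.0035). RGLS4326 and wild type differed by -0.04 (95% interval -0.27 to 0.19, edgeR adjusted p = 0.783), and by 0.06 without wild-type mouse 5. Scaled to the housekeeping genes, PBS lay below wild type by -0.71 (edgeR adjusted p = 0.00012) and RGLS4326 differed from it by -0.30 (edgeR adjusted p = 0.0788), or by -0.38 and -0.04 relative to the median of all genes.

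Zfp367 encodes a zinc finger transcription factor. Wild-type values were 22.2, 24.7, 21.9, 22.4 and 31.1 CPM. PBS mice ran from 11.4 to 19.0 CPM with a median of 13, and treated mice from 13.4 to 22.1 CPM with a median of 17.2. All 14 treated mice lay above the PBS median but only 2 above every PBS mouse. PBS and wild type did not overlap, as was so for 42.2% of all genes tested. Means were 24.5 ± 3.88 CPM for wild type (SD, n = 5), 13.9 ± 2.36 CPM for PBS (SD, n = 12) and 16.9 ± 2.35 CPM for RGLS4326 (SD, n = 14). The log2 difference was -0.82 between PBS and wild type (standard error 0.109, edgeR adjusted p = 1.48e-07), 0.29 between RGLS4326 and PBS (standard error 0.084, edgeR adjusted p = 0.0276) and -0.53 between RGLS4326 and wild type (standard error 0.107, edgeR adjusted p = 0.0001). Of the 4 genes, Zfp367 alone passed the test against wild type with RGLS4326 after TMM scaling, whereas scaled to the housekeeping genes Plekha3 passed as well. Its rise with RGLS4326 was the least secure, since leaving out PBS mouse 2, 3, 5, 9 or 10 gave an edgeR adjusted p of 0.0510, 0.0534, 0.0556, 0.0552 and 0.0591.

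Without treated mouse 9 the same 4 genes passed against PBS, with log2 differences of 0.22 for Plekha3, 0.17 for Mink1, 0.36 for Cdc37l1 and 0.25 for Zfp367 (edgeR adjusted p = 0.0041, 0.0114, 0.0151 and 0.0467). Counted per animal, 12 of 14 treated mice lay above the PBS median for all 4 genes and 2 for 3 of them, a description that follows from the choice of these 4. Scaled to the 6 housekeeping genes, the differences grew to 0.30, 0.25, 0.41 and 0.37, of which 0.08 was the shift of all genes, but none passed (edgeR adjusted p = 0.0662, 0.0776, 0.0690 and 0.0898); in that scaling 91 of all genes passed. Of the 9 genes 6 had an unadjusted p under 0.05 there. Lcn2 was measured after treatment and is an outcome of treatment in the study, so as a covariate it cannot be taken as independent of RGLS4326. With the Lcn2 level of each mouse as a covariate, Plekha3 alone kept its call (log2 difference 0.20, edgeR adjusted p = 0.0210). Mink1, Cdc37l1 and Zfp367 had log2 differences of 0.15, 0.30 and 0.17 there (edgeR adjusted p = 0.0561, 0.0969 and 0.198), of which that of Zfp367 had moved by more than 1.5 times. In that fit 7 of the 9 genes had an unadjusted p under 0.05, and Rhoc differed by 0.20 (edgeR adjusted p = 0.0576).

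**Figure D3:**
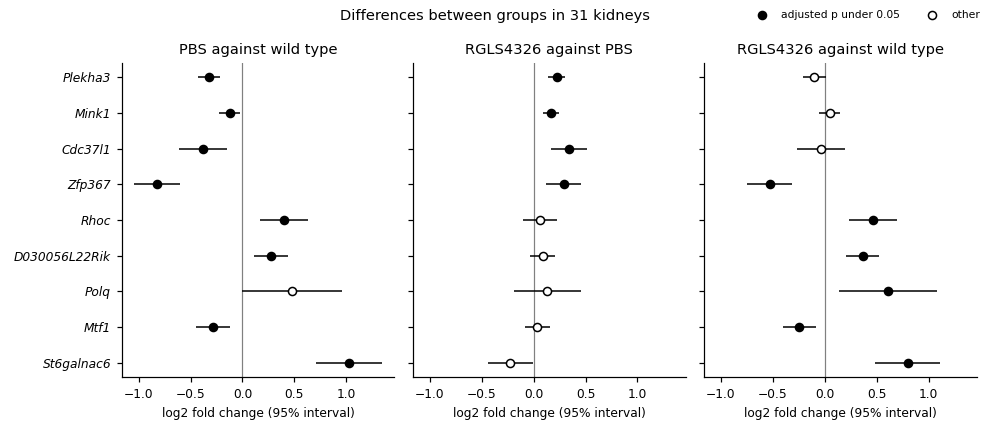
Log2 differences of the 9 genes between groups with 95% intervals from edgeR's fit to all 31 kidneys; filled points have an adjusted p under 0.05. The 4 genes at the top lie right of 0 between RGLS4326 and PBS and left of 0 between PBS and wild type.

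Rhoc encodes a small GTPase that controls the actin cytoskeleton and cell movement. Its wild-type values, in mouse order, were 76.4, 84.6, 77.9, 79.5 and 94.8 CPM. Its PBS values spanned 90.3 to 143 CPM (median 102) and its RGLS4326 values 70.2 to 141 CPM (median 113). Treated mouse 9 was the lowest of all 31 mice. Means were 82.7 ± 7.45 CPM for wild type (SD, n = 5), 109 ± 17.2 CPM for PBS (SD, n = 12) and 114 ± 17.5 CPM for RGLS4326 (SD, n = 14). Against wild type it rose by a log2 difference of 0.40 with PBS (standard error 0.114, edgeR adjusted p = 0.0023) and 0.46 with RGLS4326 (standard error 0.112, edgeR adjusted p = 0.00074). RGLS4326 and PBS were neighbours in level that did not differ beyond their spread (log2 difference 0.06, 95% interval -0.11 to 0.23, edgeR adjusted p = 0.603), and without mouse 9 the difference was 0.10 (edgeR adjusted p = 0.298). Scaled to the housekeeping genes, the difference between PBS and wild type was 0.04 and no longer passed (edgeR adjusted p = 0.630), or 0.37 relative to the median of all genes. That between RGLS4326 and wild type was 0.18 there and passed (edgeR adjusted p = 0.0447).

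D030056L22Rik is a protein-coding gene named only by its clone. Wild-type values were 10.4, 9.68, 9.52, 10.9 and 11.1 CPM. PBS mice ran from 10.5 to 13.7 CPM with a median of 12.7, and treated mice from 9.05 to 15 CPM with a median of 13.6. Of 12 PBS mice 10, and of 14 treated mice 13, lay above every wild-type mouse, and treated mouse 9 below all of them. Means were 10.3 ± 0.716 CPM for wild type (SD, n = 5), 12.5 ± 0.928 CPM for PBS (SD, n = 12) and 13.3 ± 1.52 CPM for RGLS4326 (SD, n = 14). It rose against wild type with PBS by 0.28 on the log2 scale (standard error 0.081, edgeR adjusted p = 0.0029), a value that scaling to the housekeeping genes turned to -0.06, still 0.27 above the median of all genes there. With RGLS4326 the rise against wild type was 0.36 (standard error 0.080, edgeR adjusted p = 0.00027), and scaled to the housekeeping genes it was 0.092 and did not pass (edgeR adjusted p = 0.319), or 0.35 relative to the median of all genes. RGLS4326 and PBS differed by 0.09 (95% interval -0.03 to 0.20, edgeR adjusted p = 0.284), and by 0.12 without mouse 9 (edgeR adjusted p = 0.0787).

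Polq encodes DNA polymerase theta, the enzyme of microhomology-mediated end joining, and was barely expressed. Its wild-type values, in mouse order, were 0.472, 0.475, 0.887, 1.15 and 0.662 CPM. Its PBS values spanned 0.648 to 1.37 CPM (median 0.893) and its RGLS4326 values 0.562 to 1.65 CPM (median 1.1). The groups overlapped throughout, with wild-type mice 1 and 2, those of index series 1, below every other mouse. Means were 0.729 ± 0.291 CPM for wild type (SD, n = 5), 1.01 ± 0.278 CPM for PBS (SD, n = 12) and 1.118 ± 0.288 CPM for RGLS4326 (SD, n = 14). The log2 difference from wild type was 0.48 with PBS (standard error 0.237, edgeR adjusted p = 0.0693) and 0.61 with RGLS4326 (standard error 0.233, edgeR adjusted p = 0.0231). Neither verdict was steady: the first passed without PBS mouse 4 or wild-type mouse 4 (edgeR adjusted p = 0.0455 and 0.0155) and the second was lost without wild-type mouse 1 or 2 (edgeR adjusted p = 0.0737 and 0.0826). Without wild-type mice 3 and 4 together, the difference between PBS and wild type was 0.94 (edgeR adjusted p = 0.0057) and that between RGLS4326 and wild type 1.067 (edgeR adjusted p = 0.0030). Scaled to the housekeeping genes, these differences were 0.12 and 0.34 and neither passed (edgeR adjusted p = 0.594 and 0.140), or 0.45 and 0.60 relative to the median of all genes. RGLS4326 and PBS differed by 0.13 (95% interval -0.19 to 0.46, edgeR adjusted p = 0.559), an interval wide enough to hold a difference as large as that of Cdc37l1, and by 0.19 without mouse 9 (edgeR adjusted p = 0.400).

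Mtf1 encodes the metal-responsive transcription factor that drives metallothionein genes. Wild-type values were 23.2, 28, 27.9, 27.8 and 23.1 CPM, 3 mice near 28 CPM and 2 near 23. PBS mice ran from 19.0 to 25.1 CPM with a median of 20.4, and treated mice from 18 to 27.0 CPM with a median of 21.7. Of 12 PBS mice 9, and of 14 treated mice 9, lay below every wild-type mouse. Means were 26 ± 2.6 CPM for wild type (SD, n = 5), 21.4 ± 2.25 CPM for PBS (SD, n = 12) and 21.9 ± 2.36 CPM for RGLS4326 (SD, n = 14). Mtf1 fell against wild type by 0.28 on the log2 scale with PBS (standard error 0.079, edgeR adjusted p = 0.0022) and by 0.25 with RGLS4326 (standard error 0.078, edgeR adjusted p = 0.0069). Without wild-type mice 3 and 4 together these values were -0.19 and -0.16 and neither passed (edgeR adjusted p = 0.0902 and 0.170). With the housekeeping scaling they were -0.61 and -0.49 and both passed (edgeR adjusted p = 7.31e-05 and 0.00097), or -0.28 and -0.24 relative to the median of all genes. RGLS4326 and PBS differed by 0.04 (95% interval -0.09 to 0.16, edgeR adjusted p = 0.678), an interval that does not reach the difference measured for Mink1, and by 0.010 without mouse 9 (edgeR adjusted p = 0.912).

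St6galnac6 encodes a Golgi sialyltransferase that adds sialic acid to gangliosides. Its wild-type values, in mouse order, were 4.66, 5.52, 5.44, 5.21 and 4.94 CPM. Its PBS values spanned 6.63 to 13.5 CPM (median 10.7) and its RGLS4326 values 6.65 to 12.8 CPM (median 8.83). Every Pcy/CD1 mouse lay above every wild-type mouse, also treated mouse 9, as was so for 42.2% of all genes with PBS and 14.8% with RGLS4326 in either direction. Means were 5.15 ± 0.359 CPM for wild type (SD, n = 5), 10.5 ± 2.34 CPM for PBS (SD, n = 12) and 8.96 ± 1.67 CPM for RGLS4326 (SD, n = 14). It rose 2.03-fold against wild type with PBS (log2 difference 1.02, standard error 0.157, edgeR adjusted p = 1.25e-06) and 1.74-fold with RGLS4326 (log2 difference 0.80, standard error 0.154, edgeR adjusted p = 6.09e-05). After housekeeping scaling these differences were 0.68 and 0.52 and both passed (edgeR adjusted p = 7.23e-05 and 0.0014), or 1.01 and 0.78 relative to the median of all genes. It was the only 1 of the 9 with a negative value between RGLS4326 and PBS, at -0.23 (95% interval -0.44 to -0.01), and this missed the threshold after adjustment (edgeR adjusted p = 0.122). Without mouse 9 the difference was -0.20 (edgeR adjusted p = 0.193). Of 14 treated mice, 13 lay at or below the PBS median, and without treated mouse 2 the edgeR adjusted p was 0.0461.

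The 4 genes that rose were higher in each of the 3 index series, a description that follows in part from choosing them over the same mice. Plekha3 means were 29.8, 29.8 and 30.0 CPM with PBS and 34.2, 34.3 and 35.8 CPM with RGLS4326 in series 1 to 3. Mink1 means were 156, 150.2 and 154 CPM with PBS and 173, 180.5 and 165 CPM with RGLS4326. For Cdc37l1 the PBS means were 33.0, 35.3 and 31.4 CPM and the RGLS4326 means 39.4, 42.3 and 44.2 CPM. The gap was widest in series 3 for Cdc37l1 and in series 2 for Mink1. Zfp367 means were 14.6, 13.9 and 13.1 CPM with PBS and 16, 18.2 and 16.4 CPM with RGLS4326. Of the others, D030056L22Rik was lower with RGLS4326 in series 2, as was Rhoc by 0.19 CPM on average, while Polq and Mtf1 were lower in series 1. St6galnac6 was lower with RGLS4326 in all 3 series, with mean differences of -0.19, -2.91 and -1.11 CPM. Within a single series 0 of the 9 and 0 of all genes passed adjustment by edgeR, with 2, 4 and 4 of the 9 at an unadjusted p under 0.05; DESeq2 was not run within series. The edgeR test of a treatment difference that varies between series called 0 genes, with 284 of 15185 at an unadjusted p under 0.05, D030056L22Rik alone among the 9 (edgeR p = 0.040, adjusted p = 0.944).

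Ordered by level per kilobase of exon (CPM per kb, on the union of all annotated exons), Rhoc, Mink1, Plekha3 and D030056L22Rik came first in each group and St6galnac6 and Polq last. In wild type the means were 51.1 ± 4.60 for Rhoc, 26.6 ± 1.17 for Mink1, 11.9 ± 0.902 for Plekha3 and 6.16 ± 0.427 CPM per kb for D030056L22Rik (SD, n = 5). Zfp367 at 4.44 ± 0.704 came before Cdc37l1 at 3.54 ± 0.566 CPM per kb in wild type, whereas with PBS Cdc37l1 at 2.72 ± 0.402 came before Zfp367 at 2.52 ± 0.428 CPM per kb, and the neighbours lay within the spread of each other there. Polq was lowest at 0.0753 ± 0.0300 CPM per kb in wild type.

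Known partners and relatives of the 9 genes were read from lists of 5 or 6 tested genes each. Between RGLS4326 and PBS, 1 of 6 genes of Golgi PI4P biology rose, Plekha8, the closest relative of Plekha3 (log2 difference 0.27, edgeR adjusted p = 0.0299), and between PBS and wild type 5 of 6 fell. DESeq2 called 2 of these 6, Plekha8 and Col4a3bp, a ceramide transfer protein. Of 6 Ste20 kinases none passed with RGLS4326 by edgeR, with 2 at an unadjusted p under 0.05 and 1 called by DESeq2. That gene, Map4k4, a near relative of Mink1, had a log2 difference of -0.18 (edgeR adjusted p = 0.0567). Of 6 genes for Hsp90 and its co-chaperones 1 rose with RGLS4326, Ptges3, the co-chaperone p23 (log2 difference 0.27, edgeR adjusted p = 0.0012), and 4 fell between PBS and wild type.
Of 6 end-joining genes Lig3, a DNA ligase, rose by 0.17 (edgeR adjusted p = 0.0421) and Lig1, the replicative ligase, fell by 0.39 on the log2 scale (edgeR adjusted p = 0.0262), and 4 rose and 2 fell between PBS and wild type. Of 5 metal response genes Gclc, which limits glutathione synthesis, and Slc30a1, a zinc exporter, rose by 0.34 and 0.25 (edgeR adjusted p = 0.0223 and 0.0233), while Mtf1 itself did not pass. The other 3 of the 5, which include metallothionein genes, did not pass either, and between PBS and wild type 2 of the 5 rose and 3 fell. Of 5 sialyltransferases none passed with RGLS4326 by edgeR or DESeq2, with 0 at an unadjusted edgeR p under 0.05, and 3 rose between PBS and wild type.

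Of the 6 housekeeping genes used for the signature, Hprt, a purine salvage enzyme, rose with RGLS4326 (log2 difference 0.14, edgeR adjusted p = 0.0135), and between PBS and wild type 2 rose and 2 fell, with log2 differences from -1.12 to 0.66. Hprt did not pass scaled to these 6 genes, with the replicate block or with the Lcn2 covariate (edgeR adjusted p = 0.0809, 0.0613 and 0.0931), nor in any series alone. The hosts of the miR-17 family were read as transcripts, not as mature microRNAs, which these libraries do not measure. Mir17hg, the host of miR-17 and miR-20a, averaged 4.04 ± 0.657 CPM for wild type (SD, n = 5), 4.34 ± 0.715 CPM for PBS (SD, n = 12) and 5.08 ± 0.745 CPM for RGLS4326 (SD, n = 14), and RGLS4326 and PBS differed by 0.23 (edgeR adjusted p = 0.0718). Against wild type it differed by 0.11 with PBS (edgeR adjusted p = 0.444) and rose by 0.33 with RGLS4326 (edgeR adjusted p = 0.0188). Mcm7, a helicase subunit whose introns hold miR-93 and miR-106b, averaged 24.5 ± 1.084 CPM for wild type (SD, n = 5), 38.4 ± 5.60 CPM for PBS (SD, n = 12) and 32.2 ± 4.78 CPM for RGLS4326 (SD, n = 14). It rose by 0.65 between PBS and wild type (edgeR adjusted p = 2.99e-06) and fell by 0.25 on the log2 scale with RGLS4326 (edgeR adjusted p = 0.0283), a call lost in the same 3 settings (edgeR adjusted p = 0.0864, 0.0828 and 0.239).

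Markers of kidney cell types moved with the same groups, and their part in the 9 genes' differences was not tested. Proximal tubule markers fell in 6 of 6 between PBS and wild type, with summed levels of 14439 to 15532 CPM in wild type, 4315 to 8762 CPM with PBS and 5684 to 13315 CPM with RGLS4326, where 2 of 6 rose against PBS by edgeR and 5 were called by DESeq2. Collecting duct markers rose in 4 of 4 against wild type and fell in 4 of 4 with RGLS4326 (317 to 674, 1013 to 2428 and 616 to 1607 CPM). All 5 fibroblast, 5 macrophage, 4 T lymphocyte, 4 B lymphocyte and 6 proliferating cell markers rose between PBS and wild type. Between RGLS4326 and PBS, 1 T lymphocyte and 1 proliferating cell marker fell (Cd2 and Ccnb1), and neither edgeR nor DESeq2 called any of the fibroblast, macrophage, B lymphocyte, thick ascending limb or podocyte markers, of which 1 macrophage and 1 B lymphocyte marker had an unadjusted edgeR p under 0.05. Of 4 liver markers 3 fell against wild type with PBS and 2 rose with RGLS4326. Every marker listed was above 0 in every mouse.

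Within a group, several of the 9 genes followed the Lcn2 level of the mouse, on log2(CPM + 1) values over 18 relations (two-sided permutation tests, Benjamini-Hochberg adjusted over the 18). With PBS, Zfp367 was lower where Lcn2 was higher (n = 12, r = -0.81, permutation p = 0.0013, adjusted p = 0.0080, Spearman coefficient = -0.77, permutation p = 0.0052). Without the 2 mice farthest from the median of Lcn2, PBS mice 5 and 10, r was -0.85, and with the series means taken out it was -0.81. In the treated mice the relation was as close (n = 14, r = -0.80, permutation p = 0.00009, adjusted p = 0.00099, Spearman coefficient = -0.85, permutation p = 0.00027), with r = -0.77 without treated mice 9 and 13 and r = -0.77 with the series means taken out. Rhoc went the other way in both groups: r was 0.73 with PBS (n = 12, permutation p = 0.0076, adjusted p = 0.0170, Spearman coefficient = 0.58, permutation p = 0.0531) and 0.92 with RGLS4326 (n = 14, permutation p = 0.00011, adjusted p = 0.00099, Spearman coefficient = 0.84, permutation p = 0.00037). Scaled to the housekeeping genes, r for Rhoc with PBS was 0.26. For Rhoc r was 0.68 and 0.78 without the 2 farthest mice of each group, and 0.81 and 0.91 with the series means taken out.

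With PBS, Polq rose with Lcn2 (n = 12, r = 0.78, permutation p = 0.0040, adjusted p = 0.0143, Spearman coefficient = 0.83, permutation p = 0.0015; r = 0.70 without the 2 farthest mice, 0.84 within series), whereas in treated mice r was 0.53 (n = 14, permutation p = 0.0666, adjusted p = 0.0999, Spearman coefficient = 0.05, permutation p = 0.867), -0.15 without the 2 farthest mice and 0.69 within series. With PBS, Cdc37l1 gave r = -0.78 (n = 12, permutation p = 0.0035, adjusted p = 0.0143, Spearman coefficient = -0.76, permutation p = 0.0058) and Plekha3 r = -0.64 (n = 12, permutation p = 0.0240, adjusted p = 0.0480, Spearman coefficient = -0.72, permutation p = 0.0104). Without PBS mice 5 and 10 they were -0.61 and -0.49 and did not pass with the mice left (permutation p = 0.0642 and 0.153), and within series they were -0.82 and -0.72. In treated mice Cdc37l1 gave r = -0.01 with all 14 (permutation p = 0.982, adjusted p = 0.982, Spearman coefficient = -0.52, permutation p = 0.0627) and r = -0.81 without mice 9 and 13 (permutation p = 0.00084), so those 2 mice decide that value.
In treated mice D030056L22Rik gave r = 0.86 (n = 14, permutation p = 0.0069, adjusted p = 0.0170, Spearman coefficient = 0.45, permutation p = 0.109) and Mtf1 r = -0.67 (n = 14, permutation p = 0.0066, adjusted p = 0.0170, Spearman coefficient = -0.53, permutation p = 0.0563). Without mice 9 and 13 these were 0.56 and -0.33 (permutation p = 0.0619 and 0.288), so they rested on those mice, and within series they were 0.91 and -0.66. Scaled to the housekeeping genes, r for D030056L22Rik in treated mice was 0.37 and did not pass (permutation p = 0.207). The other 7 relations did not pass adjustment, St6galnac6 in both groups (r = 0.55 and 0.56) and Mink1 in both (r = -0.26 and -0.15) among them. Scaled to the housekeeping genes, Mink1 gave r = -0.81 with PBS and -0.57 with RGLS4326 (unadjusted permutation p = 0.0010 and 0.0369). In that scaling Mtf1 with PBS gave r = -0.76 and Plekha3 with RGLS4326 r = -0.62 (unadjusted permutation p = 0.0042 and 0.0383). By the Spearman coefficient after adjustment, St6galnac6 with PBS passed (Spearman coefficient = 0.69, permutation adjusted p = 0.0399), whereas Rhoc with PBS and D030056L22Rik and Mtf1 with RGLS4326 did not (permutation adjusted p = 0.113, 0.175 and 0.113). Whether a relation differs between PBS and RGLS4326 was not tested.

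**Figure D4:**
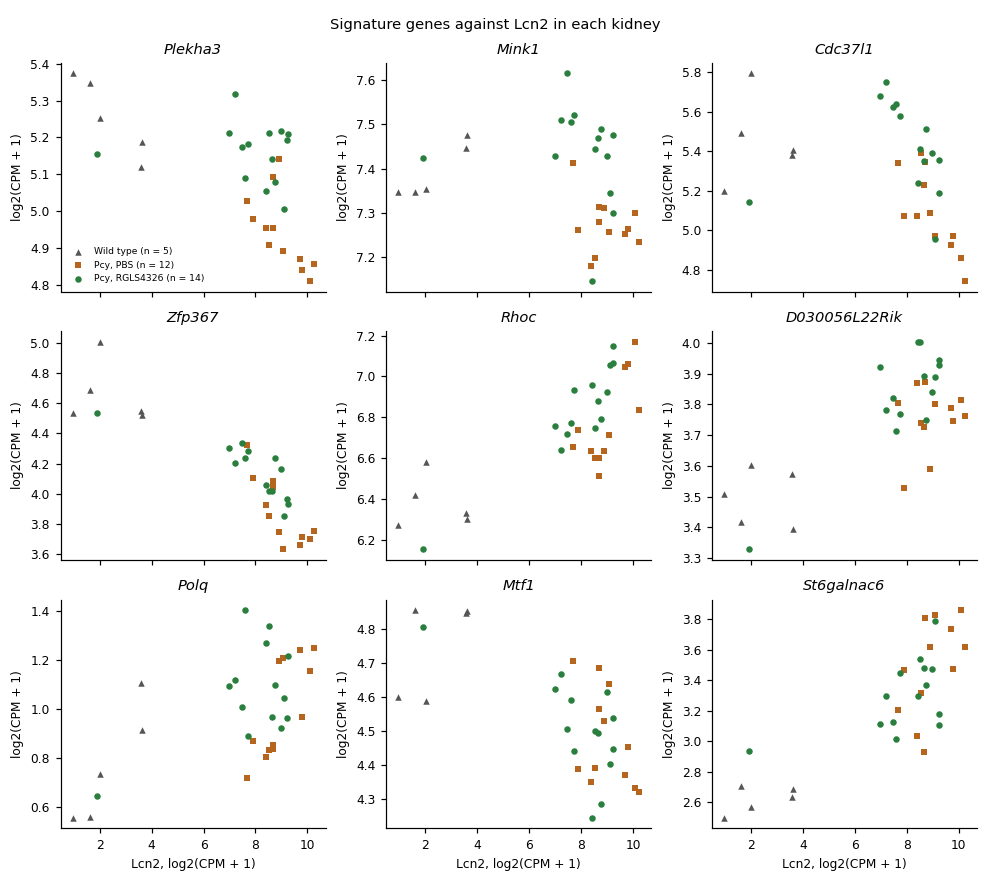
Level of each of the 9 genes against Lcn2, both as log2(CPM + 1), in 31 kidneys, with wild type as triangles (n = 5), PBS as squares (n = 12) and RGLS4326 as circles (n = 14). Zfp367 falls and Rhoc climbs with Lcn2 in both Pcy/CD1 groups, and the circle near the wild-type mice is treated mouse 9.

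The genes that varied most alike within the groups were named by Pearson's r of the deviations from the group means over the 31 mice, among 11515 genes averaging 5 CPM or more. This is a description, and all points of a mouse share its library and depth. Rhoc ran most like Mvp (r = 0.91), the major vault protein, and St6galnac6 like Inf2 (r = 0.90), a formin, and Myl9 (r = 0.87), a myosin light chain. Zfp367 ran most like Fcamr and Magt1 (r = 0.87 for both), and Cdc37l1 like Gng12 (r = 0.87), a G protein subunit. Mink1 ran most like Ern1 and Smad4 (r = 0.83 and 0.81), Mtf1 like Tmppe (r = 0.83), Plekha3 like Ints6 (r = 0.77), D030056L22Rik like Mapkapk3 (r = 0.77) and Polq like Rab13 (r = 0.73). By the single closest gene of each, likeness was weakest for Polq, the gene with the fewest counts.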

How the data were processed

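RNA-seq libraries of 31 kidneys were made by the authors with a stranded mRNA kit, trimmed with Trim Galore, mapped with STAR on GRCm38 and counted in genes with HTSeq 0.6.1; the submitters' processing notes also name FastQC 0.11.2, SAMtools 1.1 and Picard 1.119. The authors deposited raw counts, 1 whole number per gene and mouse. HTSeq's summary lines were left out of library sizes (reads on no gene were 10.4% to 12.5% and ambiguous reads 0.381% to 0.503% of those counted).

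From these counts, genes passing edgeR's filterByExpr were kept, TMM factors scaled the libraries, and a quasi-likelihood model with a coefficient for each group was fitted to the 31 mice (edgeR 4.0.16, R 4.3.3). A gene was called at a Benjamini-Hochberg adjusted p under 0.05 over 15185 genes, with no threshold on size. Standard errors are the log2 difference divided by the square root of F, which is approximate. Depth of 14892524 to 27459962 gene counts leaves Polq least precise. Permutation tests drew 100000 resamples with a pseudocount of 1 CPM. Seed matches were read with Python 3.11.15 from GENCODE vM21, in which 14437 tested genes had a 3′UTR, 605 of them matched by a RefSeq synonym.

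The steps were tested on simulated data. The 9 genes, all lists and the tests were chosen with earlier results of these data known. The genes named are the 9, host transcripts and Lcn2, other signature and housekeeping genes past the threshold between RGLS4326 and PBS, 1 or 2 genes per partner list and the genes most alike; P2rx4, Clock, Cd2 and Ccnb1 were named after their values were seen where a count turned on them. Groups and replicate numbers follow the labels, in which mice of equal number are different animals, and their deviations did not go together (mean correlation -0.085; over 0.1 in 4 of 12 pairs of PBS and RGLS4326 mice). Alternatives covered scaling, filter, DESeq2 1.42.0, a fit of the compared groups alone, index series, replicate block, an Lcn2 covariate, pseudocount and leaving out each mouse; leaving out wild-type mice 3 and 4 together was added after seeing the data. Protein sequences and the genome sequence were not used here. One of the partner lists and one detail of the strain are not reported here.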

Additional observations from a re-analysis of the deposited data

How the results depend on the processing

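Between RGLS4326 and PBS, 4 of the 9 genes passed under RLE size factors, DESeq2, no filter, a mean of at least 1 CPM, the series as covariate and the compared groups alone. In these settings, in that order, 2430, 3214, 1720 (of 19698 tested), 2470 (of 13784 tested), 2238 and 1471 of all genes passed in place of 2402. Scaling to the 6 housekeeping genes left 0 of the 9 and 91 of all genes, and the Lcn2 covariate 1 and 159. With same-numbered mice as a replicate block, though the numbers do not pair the animals, 2 of the 9 passed (Plekha3 and Mink1) and 303 of all genes, and Polq lost its call against wild type (edgeR adjusted p = 0.0929). Cdc37l1 and Zfp367 lost their calls against PBS in that fit at log2 differences of 0.33 and 0.28 (edgeR adjusted p = 0.0527 and 0.0838). Series 1, 2 or 3 alone gave 0 of the 9 and 0 of all genes, with 277, 3001 and 3019 genes at an unadjusted p under 0.05. Leaving out 1 mouse gave 3 to 5 of the 9 and 618 to 4002 of all genes, past 1.5 times without PBS mice 2, 3, 4, 5, 9 or 10 or RGLS4326 mice 2, 3, 6, 8, 9, 10 or 13. Between PBS and wild type 5, 4 and 3 of the 9 passed in series 1, 2 and 3 alone, with 7895, 6913 and 5853 of all genes. Mink1 was lost there at a mean of at least 1 CPM over all mice (edgeR adjusted p = 0.0895). Between RGLS4326 and wild type series 2 gave 0 of the 9 and 385 of all genes, and series 3 gave 1 and 2779. Causes were not tested, but a single series holds fewer mice.

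Signs that turned, all of them of differences that had no call in that setting, were between RGLS4326 and PBS D030056L22Rik in series 2 (-0.11), Polq in series 1 (-0.15) and Mtf1 in series 1 (-0.045), in series 3 (-0.00059) and with the Lcn2 covariate (-0.036); between PBS and wild type D030056L22Rik scaled to the housekeeping genes (-0.061) and Polq in series 2 (-0.17); and between RGLS4326 and wild type Plekha3 (0.00099) and Cdc37l1 (0.058) in series 2, Mink1 scaled to the housekeeping genes (-0.21) and Cdc37l1 without wild-type mouse 5 (0.061, against -0.074 without mouse 1).

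For the relations with Lcn2, scaling to the housekeeping genes moved r with PBS to -0.81 for Mink1, 0.26 for Rhoc, -0.51 for D030056L22Rik and -0.76 for Mtf1, and with RGLS4326 to -0.62 for Plekha3, -0.57 for Mink1, 0.37 for D030056L22Rik and 0.13 for St6galnac6. Taking out series means gave 0.72 for St6galnac6 with PBS, and with RGLS4326 0.042 for Cdc37l1, 0.69 for Polq and 0.49 for St6galnac6. A pseudocount of 0.1 CPM gave 0.011 for Cdc37l1 and 0.59 for Polq with RGLS4326. Without the 2 farthest mice r was -0.49 for Plekha3 and -0.61 for Cdc37l1 with PBS, and -0.81 for Cdc37l1, 0.56 for D030056L22Rik, -0.15 for Polq, -0.33 for Mtf1 and 0.33 for St6galnac6 with RGLS4326.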
